A study of Mus musculus with 24 samples.

Results

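The core transcription factors of the pancreatic β-cell were examined in MIN6 cells, a mouse insulinoma line that secretes insulin. The set holds 10 genes, Mafa, Pdx1, Nkx6-1, Nkx2-2, Neurod1, Isl1, Pax6, Rfx6, Insm1 and Mnx1, chosen by gene symbol from the 12310 genes of the count table, and all 10 were present and passed the filter on low counts. RNA sequencing compared cells treated with verapamil, a blocker of L-type calcium channels, at 50 µM for 24 h with cells left untreated for the same time (control). Both groups were wild type and kept at 5.6 mM glucose, and each had 12 libraries, in 4 experiment sets of 3 libraries per group. The experiment set was read from the first digit of each library's description, which the labels and the paper do not state outright. The study asked how verapamil changes the β-cell transcriptome. MIN6 cells are a tumour-derived line, so the libraries are cultures of a single line and not separate animals, and nothing in the labels shows which replicates within a set came from separate cultures. The p-values therefore measure the spread between these libraries, part of which may be technical.

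These factors form a network that switches on in the developing islet and is kept active in the mature β-cell. Mafa, Pdx1 and Neurod1 bind the insulin promoter and act together there, while Nkx6-1, Nkx2-2, Pax6, Isl1 and Mnx1 are homeodomain proteins that maintain β-cell genes and hold back genes of other islet cells. Rfx6 and Insm1 act in endocrine progenitors as well as in mature cells. Loss of several of them in mature β-cells is known to lower insulin production or to let genes of other islet cell types appear.

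Total counts per library ranged from 12590476 to 32360171 in control and from 21840159 to 44806556 in verapamil-treated cells, and no member had fewer than 253 reads in any library. The mouse β-cell label was checked against its markers. Of 9 β-cell markers 8 were in the table, and their summed level was 2865 to 3903 CPM (counts scaled to a common library total after TMM normalization) in control and 2565 to 3406 CPM in verapamil-treated libraries, although Iapp, which encodes amylin, was at only 2.19 ± 0.595 CPM (SD, n = 12) in control. This sum includes the members Mafa, Pdx1 and Nkx6-1. Within it the mean of Mafa went from 697 to 1260 CPM and that of Ins2 from 1318 to 635 CPM. The sum therefore does not show that each marker held its level. No marker of delta, PP or epsilon cells (0 of 7) and none of fibroblasts, endothelium or immune cells (0 of 10) was among the genes analysed. Of 7 alpha-cell markers 3 were present, among them the hormone gene Gcg, which was higher after verapamil, with means of 186 ± 9.21 and 260 ± 47.8 CPM (log2 fold change 0.49, edgeR adjusted p = 1.4e-05), and Slc7a2, an amino acid transporter gene, with means of 416 ± 21.5 and 347 ± 118 CPM (-0.26, adjusted p = 0.17). Of 12 acinar and ductal markers 2 were present, among them Sox9, and the acinar genes Cpa1, Prss2, Cela1 and Ctrb1 were not among the genes analysed. The part of these markers in the results below was not tested. In bulk RNA, fewer cells that express a gene and less RNA per cell cannot be told apart.

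Many homeodomain genes hold in their coding sequence a short run that encodes part of the DNA-recognition helix, and it is shown here for Pdx1, Isl1 and Mnx1 as examples. The homeobox recognition-helix run searched for has 11 bases, with positions 6 and 9 free, and was sought on the sense strand of the longest transcripts (GENCODE M21, GRCm38). It was in frame in these examples and occurred anywhere in 293 of 12308 transcripts of the table (2.4%). The 60 bases around it are given here 5′ to 3′ with the matching run in capitals.
Pdx1: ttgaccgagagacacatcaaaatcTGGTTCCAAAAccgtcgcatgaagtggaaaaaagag
Isl1: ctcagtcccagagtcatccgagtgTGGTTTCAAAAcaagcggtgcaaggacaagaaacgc
Mnx1: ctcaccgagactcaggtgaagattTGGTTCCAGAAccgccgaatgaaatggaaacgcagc
Over these 60 bases, Pdx1 shared 41 bases with Mnx1 (68.3%) and 32 with Isl1 (53.3%), and Isl1 and Mnx1 shared 25 (41.7%).

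Start regions are shown for Nkx2-2, which was higher after verapamil, and for Neurod1 and Rfx6, the members with the largest decreases. They run from 250 bases before to 50 bases after the start that RefSeq gives (GRCm38.p6), and 8 of the 10 members had an entry. For Rfx6 and Nkx2-2 this start lies inside the gene as GENCODE bounds it, whose annotation begins several kilobases further upstream, so the windows show 1 possible start and which start the cells used was not tested. Capitals mark matches, on either strand, to the GC box GGGCGG, which 35.7% of all 32851 promoters of that length hold, to CCAAT (37.4%), to TATAAA (13.6%) or to the cAMP-response core TGACG (20.8%). The sequences are written in the direction of the gene.
Nkx2-2, chr2:147186353-147186652, minus strand: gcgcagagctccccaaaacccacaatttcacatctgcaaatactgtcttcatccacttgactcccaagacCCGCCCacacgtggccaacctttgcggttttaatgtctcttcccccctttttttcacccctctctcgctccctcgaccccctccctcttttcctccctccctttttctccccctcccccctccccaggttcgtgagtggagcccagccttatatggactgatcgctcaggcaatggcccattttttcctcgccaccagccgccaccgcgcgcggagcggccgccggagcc
Neurod1, chr2:79456587-79456886, minus strand: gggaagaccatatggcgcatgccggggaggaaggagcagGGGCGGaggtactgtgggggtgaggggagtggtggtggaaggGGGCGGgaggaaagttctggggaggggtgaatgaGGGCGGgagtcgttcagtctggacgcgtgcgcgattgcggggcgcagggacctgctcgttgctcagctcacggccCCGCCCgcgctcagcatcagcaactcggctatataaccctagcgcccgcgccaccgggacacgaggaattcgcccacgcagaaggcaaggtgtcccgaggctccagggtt
Rfx6, chr10:51685268-51685567, plus strand: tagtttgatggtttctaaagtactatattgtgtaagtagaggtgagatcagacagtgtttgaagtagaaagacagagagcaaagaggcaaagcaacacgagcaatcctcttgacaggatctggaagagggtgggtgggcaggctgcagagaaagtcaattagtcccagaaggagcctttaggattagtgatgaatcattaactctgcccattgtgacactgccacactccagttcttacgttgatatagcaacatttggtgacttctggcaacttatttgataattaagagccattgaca
The Nkx2-2 window held 1 GC box and the Neurod1 window 4, and the Rfx6 window held none of the 4 motifs but 5 copies of TAAT, the core that many homeodomains bind, which 58% of promoters contain. The base composition of a start region and that of its transcript need not go together. Neurod1 has a promoter of 66.7% GC, above 85% of promoters, and a transcript of 43.6% GC. Rfx6 was low in both, with 42.3% GC in the promoter and 44.8% in the transcript.

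Verapamil-treated cells had more Mafa and Nkx2-2 mRNA and less Rfx6, Neurod1 and Pax6 mRNA, while Isl1, Insm1, Nkx6-1, Mnx1 and Pdx1 did not pass the test. Counts were compared with edgeR's quasi-likelihood test over all 24 libraries, with Benjamini-Hochberg adjustment over the 12306 genes tested and a threshold of 0.05. By this test 2 members were higher, 3 were lower and 5 were not called. Of all genes tested, 62.8% were called, 31.2% higher and 31.6% lower, so 5 of 10 members called is no more than the background. In 4 members, Mafa, Nkx2-2, Neurod1 and Rfx6, the 12 verapamil libraries did not overlap the 12 controls, which was the case for 10.1% of all genes tested (4.95% with every verapamil library above and 5.18% with every one below).

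**Figure D1:**
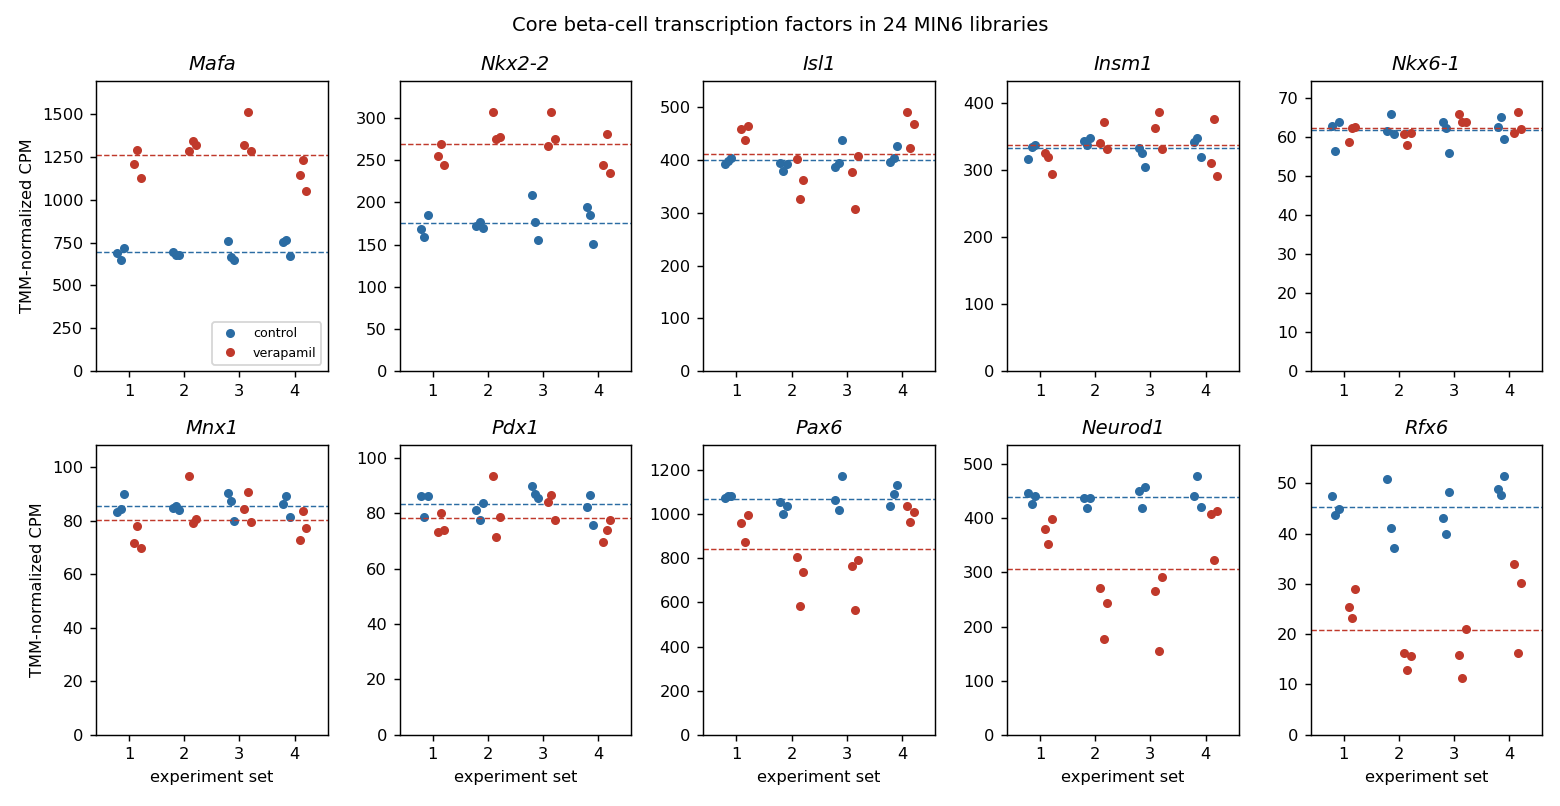
Level of each factor in 24 libraries, in CPM after TMM scaling (y axis, starting at 0), by experiment set (x axis), with control in blue, verapamil in red, 1 point per library and dashed lines at the group means. All 12 verapamil libraries lie above all controls for Mafa and Nkx2-2 and below them for Neurod1 and Rfx6, and the verapamil libraries of sets 2 and 3 are the lowest for Pax6 and Neurod1.

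Mafa, the basic leucine zipper factor that activates the insulin gene in mature β-cells, showed the largest increase among the members. It lies on chromosome 15 (75745490 to 75748228, minus strand, GRCm38) and has a single exon. In control its level ranged from 646 to 766 CPM with a median of 682, and in verapamil from 1052 to 1511 CPM with a median of 1287. The lowest treated library was thus well above the highest control. The means were 697 ± 42.5 and 1260 ± 119 CPM (SD, n = 12 each), a ratio of 1.81, and the log2 fold change was 0.85 (SE 0.0487, edgeR adjusted p = 3.4e-13).

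Nkx2-2, a homeodomain factor that represses genes of other islet cells and is needed for β-cells to form, was also higher. Control libraries ranged from 151 to 209 CPM with a median of 174, and verapamil libraries from 234 to 307 CPM with a median of 272. No library of either group entered the range of the other. The means were 175 ± 16.7 and 270 ± 23 CPM, a ratio of 1.54 and a log2 fold change of 0.62 (SE 0.0544, edgeR adjusted p = 1.3e-09). The gene (chromosome 2, 147177546 to 147194243, minus strand) overlaps 2 antisense genes, and the labels do not say whether reads were counted by strand, so reads of the antisense genes cannot be told apart from its own.

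Rfx6, a winged-helix factor that controls calcium channel and insulin secretion genes in β-cells, had the largest decrease and was also the member with the lowest level. Its control libraries lay between 37.1 and 51.5 CPM with a median of 46.2, and the verapamil libraries between 11.4 and 34 CPM with a median of 18.6. All treated libraries were below all controls, and they were spread more widely, with a coefficient of variation of 35.3% against 9.89%. Its mean fell from 45.4 ± 4.49 to 20.9 ± 7.39 CPM, a ratio of 0.462 and a log2 fold change of -1.12 (SE 0.145, edgeR adjusted p = 8.6e-07). Rfx6 lies on chromosome 10 (51677756 to 51730432, plus strand) and has 19 exons in its longest transcript.

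Neurod1, a basic helix-loop-helix factor that pairs with E proteins at the E boxes of the insulin promoter, was lower in all 12 treated libraries. Control libraries ranged from 419 to 479 CPM with a median of 440, and treated libraries from 155 to 414 CPM with a median of 307. The highest treated library came close to the lowest control without reaching it. The mean fell from 440 ± 17.3 to 307 ± 88 CPM, a ratio of 0.697 and a log2 fold change of -0.52 (SE 0.123, edgeR adjusted p = 0.000904). With the counts of each set and group added up, where 41.7% of genes were called, Neurod1 passed only narrowly (edgeR adjusted p = 0.0482). Neurod1 (chromosome 2, 79452521 to 79456751, minus strand) overlaps Cerkl on the same strand, which is also in the table, and reads of the shared part are uncertain.

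Pax6, a paired-domain and homeodomain factor that keeps up β-cell genes and represses ghrelin and other alternative hormones, was lower with some overlap. It ranged from 999 to 1174 CPM in control, median 1068, and from 568 to 1039 CPM in verapamil, median 839. Of the 12 treated libraries 10 were below every control and 2, both in set 4, lay inside the control range. The mean fell from 1070 ± 48.5 to 841 ± 160 CPM, a ratio of 0.786 and a log2 fold change of -0.35 (SE 0.0821, edgeR adjusted p = 0.000902). When the libraries of each set and group were added up, leaving 4 sums per group and 41.7% of genes called, Pax6 was no longer called (adjusted p = 0.0595). Pax6 (chromosome 2, 105668900 to 105697364, plus strand) also has an antisense gene over it.

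The other 5 members had log2 fold changes between -0.09 and 0.04. Isl1, the LIM-homeodomain factor that acts with Ldb1, had means of 401 ± 16.2 CPM in control and 411 ± 58.4 CPM in verapamil (log2 fold change 0.04, adjusted p = 0.634), but its treated libraries ranged from 307 to 491 CPM around controls of 380 to 438. Of these treated libraries 5 lay above every control and 4 below. Insm1, a zinc-finger factor of endocrine cells, had 332 ± 13.4 and 337 ± 31.6 CPM (0.02, adjusted p = 0.73), with 4 treated libraries above and 2 below the control range. Nkx6-1, the homeodomain factor that keeps β-cells from an alpha-cell programme, was the steadiest, with 61.7 ± 3.13 and 62.2 ± 2.59 CPM (0.01, adjusted p = 0.807) and 10 of 12 treated libraries inside the control range of 55.9 to 66 CPM.

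Mnx1, a homeodomain factor of the early pancreas and of β-cells, and Pdx1, the homeodomain factor that is needed for the pancreas to form and drives insulin transcription, had near-identical values. Mnx1 had means of 85.5 ± 3.26 and 80.4 ± 7.76 CPM (log2 fold change -0.09, adjusted p = 0.0956), with 7 treated libraries below every control and 2 above. Pdx1 was at 83.3 ± 4.32 and 78.3 ± 6.88 CPM (-0.09, adjusted p = 0.0893), with 5 below and 1 above. A p that misses the threshold does not show that these genes were alike in both groups. When libraries were scaled by their totals alone, both passed it at a log2 fold change of -0.12 (adjusted p = 0.0172 for Pdx1 and 0.0182 for Mnx1).

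The order of the members was compared per kilobase of the longest transcript, a level and not a difference. In control, Mafa (255 ± 15.5 CPM per kb) and Pax6 (242 ± 11) were highest and their ranges overlapped, followed by Neurod1 (161) and Isl1 (159), Insm1 (107) and Nkx2-2 (82.6), Pdx1 (38.6) and Mnx1 (38.1), and then Nkx6-1 (19.7) and Rfx6 (13.1). Neighbours overlapped within each of these pairs other than the last, and the groups of neighbours were apart from each other. After verapamil, Mafa stood alone at 460 ± 43.5 CPM per kb. Pax6 (190), Isl1 (163), Nkx2-2 (127), Neurod1 (112) and Insm1 (109) then formed a run in which each overlapped the next, and Rfx6 was at 6.04 ± 2.13. With the length of all annotated exons in place of the longest transcript, Pax6 was at 91.5 CPM per kb in control and 71.9 in verapamil. Isl1 was then at 101 and 104, Nkx2-2 at 60.9 and 93.8, and Rfx6 at 11.3 and 5.22. The places of Pax6, Isl1 and Nkx2-2, and the pairs and the run that hold them, thus rest on which transcripts the cells used.

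Ratios between members in the same library do not depend on how libraries were scaled. They were not corrected for GC content or length, with which the groups also differed, as described below. Mafa has a transcript of 65% GC, and Neurod1, Rfx6 and Pax6 lie between 43.6% and 49.3%. The part of base composition in these ratios was not tested. Of 45 pairs, 21 had log2 ratios that did not overlap between the groups. The share of such pairs among all genes was not computed, so these counts do not show a trait of the members. Mafa was separated in 8 of its 9 pairs, and Nkx2-2 was the exception, with a median log2 ratio of Mafa to Nkx2-2 of 2.00 in control and 2.24 in verapamil. The median log2 ratio of Mafa to Neurod1 was 0.67 in control and 2.04 in verapamil, and that of Mafa to Rfx6 was 3.97 and 6.09. Log2 ratios of Mafa to Pax6 lay between -0.86 and -0.46 in control and between 0.06 and 1.41 in verapamil. These are ratios of CPM without division by length, so their sign does not say which gene was higher. Per kilobase of the longest transcript, Mafa (255 CPM) and Pax6 (242 CPM) already overlapped in control. Pdx1 and Mnx1 kept a log2 ratio near -0.05 in control and -0.04 in verapamil.

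The effect was then taken apart by experiment set, with 3 libraries against 3 in each. Mafa was 0.81, 0.93, 1.00 and 0.65 higher on the log2 scale in sets 1 to 4, and Nkx2-2 0.57, 0.71, 0.66 and 0.52. Both were above 0 in every set, and Mafa was highest in set 3 and lowest in set 4. Log2 fold changes of Rfx6 were -0.82, -1.55, -1.43 and -0.88, those of Neurod1 -0.23, -0.93, -0.89 and -0.23, and those of Pax6 -0.21, -0.56, -0.61 and -0.11. In these 3 genes the decreases in sets 2 and 3 were larger in value than those in sets 1 and 4, and the increases of Mafa and Nkx2-2 were also larger in value in sets 2 and 3. Isl1 had 0.18 and 0.17 in sets 1 and 4 and -0.12 and -0.15 in sets 2 and 3. None of the 10 members passed the test of the interaction of set and treatment in edgeR, which called 9.65% of all genes, while 5 had an unadjusted p under 0.05. Neurod1 came nearest (adjusted p = 0.0592), then Pax6 (0.0682), Isl1 (0.114) and Mafa (0.144). After the GC and length correction described below, the interaction called 7.73% of genes and, among the members, Pax6 (adjusted p = 0.0259). In set 4 alone only 0.406% of genes and no member were called by edgeR, while 3 members had an unadjusted p under 0.05, with adjusted p = 0.0704 for Mafa and 0.249 for Rfx6. In sets 1 and 4 together, which called 25.5% of genes, Isl1 was higher (0.18, adjusted p = 0.00961) and Mnx1 lower (-0.18, adjusted p = 0.0343) in addition to the 5 members named first. Sets 2 and 3 together called 4190 genes higher and 4276 lower, but neither Isl1 (-0.13, edgeR adjusted p = 0.0885) nor Mnx1 (0, adjusted p = 0.999). The sets joined here are those with like values above, so these p-values do not test a difference between the joined sets.

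**Figure D2:**
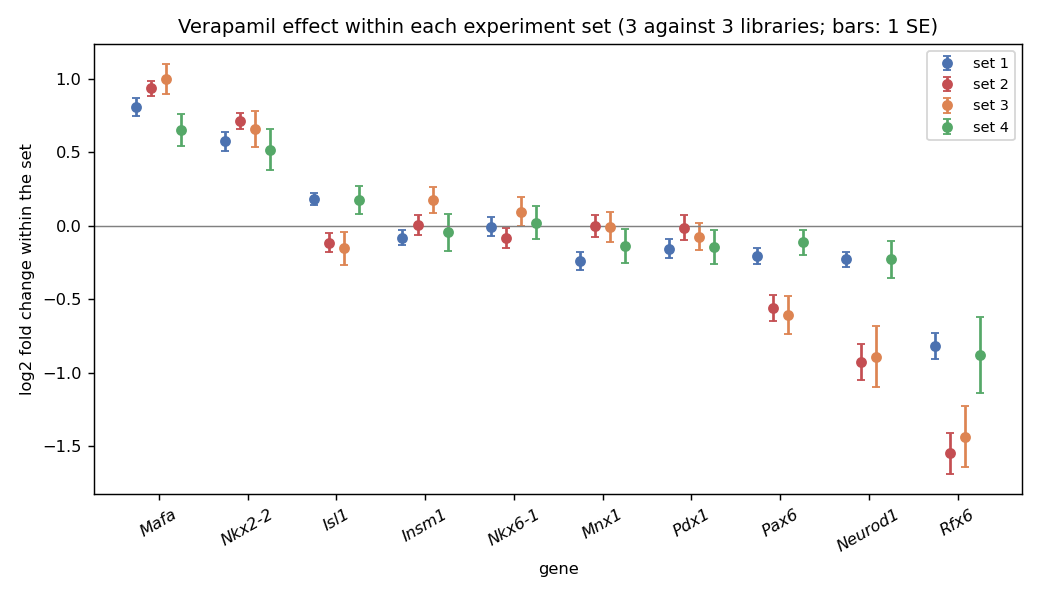
Log2 fold change of each factor, verapamil over control (y axis), in each of the 4 experiment sets (colours), with bars of 1 SE from edgeR on 3 against 3 libraries. Mafa and Nkx2-2 lie above 0 in every set, Rfx6, Neurod1 and Pax6 below 0 in every set with lower values in sets 2 and 3, and Isl1 on either side of 0.

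The verapamil libraries also differed from the controls in base composition. The correlation across genes between a library's deviation and the GC content of the transcript lay between -0.178 and 0.156 in control and between 0.0363 and 0.635 in verapamil, with 0.482 to 0.635 in sets 2 and 3. The corresponding correlation with transcript length lay between -0.131 and 0.126 in control and between -0.586 and -0.0379 in verapamil. The value of -0.586 was that of V11 in set 4, while V10 and V12 of that set were at -0.0716 and -0.0379. Without V11, the fit over the remaining libraries called 2 members higher and 3 lower. Whether V11 affected the calls in set 4 alone was not tested. The median log2 fold change was -0.45 in the GC quartile with the lowest content and 0.20 in that with the highest. The members fall on both sides of the table's median of 49.8% GC. Neurod1, Rfx6, Isl1 and Pax6 have transcripts of 43.6% to 49.3% GC, and the other 6 have 55.7% to 65%, Mafa being above 99.6% of genes. All 3 members that were lower are thus in the first group and both that were higher in the second. Of the 5 called members, Rfx6, Pax6 and Neurod1 were further down than the median of their quartile, Neurod1 by the least (-0.52 against -0.45), and Mafa and Nkx2-2 were further up than that of theirs.

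**Figure D3:**
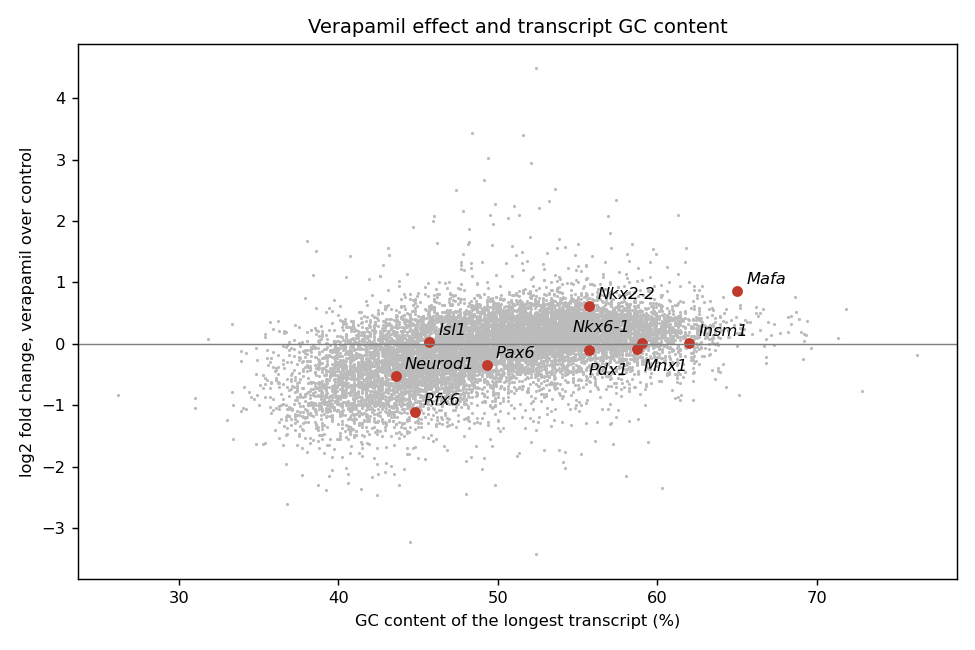
Log2 fold change, verapamil over control (y axis), against the GC content of the longest transcript in percent (x axis) for all annotated genes tested in grey, with the 10 factors in red. Values rise from the left towards the middle; Rfx6 and Neurod1 are at the low-GC side and Mafa, at 65% GC, at the far right above most genes.

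The comparison was therefore repeated with a correction of each library's counts for its trend over GC content and length, and separately with each library's GC and length slopes as covariates. Under the correction Mafa was higher by 0.65 and Nkx2-2 by 0.36 on the log2 scale, and Isl1 joined them at 0.17 (edgeR adjusted p = 9.72e-06). The other 7 were lower, at -0.89 for Rfx6, -0.35 for Mnx1, -0.34 for Pdx1, -0.30 for Pax6, -0.25 for Neurod1, and -0.19 for both Nkx6-1 and Insm1. All 10 members were then called, against 57.1% of all genes, 28.2% higher and 28.9% lower. With the slopes as covariates, 35.3% of genes were called, 21.1% higher and 14.2% lower, and Mafa (0.70), Nkx2-2 (0.48) and Isl1 (0.28) were higher and Rfx6 (-0.52), Mnx1 (-0.22), Insm1 (-0.16) and Pdx1 (-0.15) lower. Neurod1 (-0.03, adjusted p = 0.633) and Pax6 (-0.05, adjusted p = 0.322) were then no longer called, and Nkx6-1 was at -0.01 (adjusted p = 0.86). The slopes go with the treatment, and raise the variance of its estimate by a factor of 1.99, so base composition and treatment cannot be fully told apart in this fit. Nor can they under the correction, which took each library's trend against the control mean. A treatment effect that goes with GC content or length would be removed with that trend, and the SEs treat the trend as known. Mafa and Nkx2-2 were higher and Rfx6 lower in all 3 fits.

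**Figure D4:**
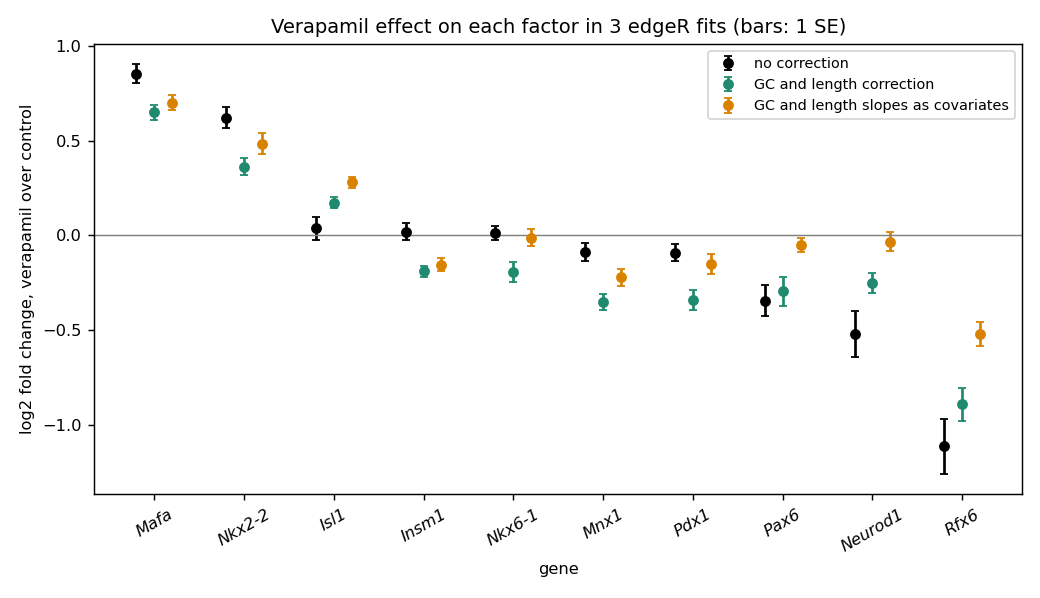
Log2 fold change of each factor, verapamil over control (y axis), from 3 edgeR fits on 24 libraries, with no correction in black, a GC and length correction in green and GC and length slopes as covariates in orange; bars are 1 SE. Mafa and Nkx2-2 stay above 0 and Rfx6 below 0, while Neurod1 and Pax6 move to about 0 with the covariates and Isl1 is higher in both other fits than without correction.

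Within groups, the members also varied together along these lines. After subtracting the group means, Pearson's r over the 24 libraries was 0.86 to 0.97 in the 6 pairs among Neurod1, Isl1, Pax6 and Rfx6, the members below the median GC. It was 0.20 to 0.83 in the 15 pairs of the other 6, and -0.82 to 0.03 in the 24 pairs across. These points share library, depth and base composition, and the values are a description. Among genes of at least 5 CPM, the 3 whose log2 CPM over 24 libraries was most like Mafa were Atf5 (r = 0.988), Wnt4 (0.988) and Tmem163 (0.984). Nkx2-2 was most like Stk40 (0.986), Tmem151a (0.984) and Mafa (0.976). Neurod1 was nearest to Tubgcp5 (0.993), Gabpa (0.992) and Ppp1cb (0.991), all of 40.8% to 41.7% GC. Pax6 was also nearest to Tubgcp5 (0.986), with Srsf1 (0.986) and Ddx5 (0.985), and Rfx6 to Mgea5 (0.991), Ptprz1 (0.988) and Eml5 (0.985). Values were lower for the members that were not called. Pdx1 was most like Mnx1 (0.803), Patz1 (0.801) and Kctd17 (0.781), and Nkx6-1 like Mta3 (0.677), Prrt1 (0.632) and H2afx (0.624). Mnx1 was most like Hdac5 (0.897), Nnat (0.886) and Nrxn2 (0.886), Insm1 like Jund (0.901), H1fx (0.893) and H2afj (0.881), and Isl1 like Cul4b (0.955), Plcl2 (0.941) and Agfg1 (0.939). Part of each value is the group difference that the genes share, and over deviations from the group means 8 of 30 of these nearest genes were the same.

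Genes that the core factors are known to bind or activate were mostly lower or not called. Of 25 measured, 2 were higher, 14 were lower and 9 were not called, with a median log2 fold change of -0.38 against -0.0033 over all genes, of which 31.2% were higher and 31.6% lower. Under the GC and length correction 5 were higher and 17 lower, against 28.2% and 28.9% of all genes, and with the slopes as covariates 4 and 13, against 21.1% and 14.2%. Ins2, an insulin gene, went from 1318 ± 160 to 635 ± 116 CPM (log2 fold change -1.05, adjusted p = 2e-10), lower than every control in all 12 treated libraries. It was also lower under the correction (-1.41) and with the covariates (-1.26). Ins1 was at 485 ± 103 and 434 ± 126 CPM and was not called (-0.16, adjusted p = 0.31). It was called lower under the correction (-0.32, adjusted p = 0.026) and with the covariates (-0.59, adjusted p = 0.00063). Pcsk1, which cuts proinsulin, had the largest change of the list, from 266 ± 46.7 to 55.5 ± 18 CPM (-2.26, adjusted p = 9.6e-12). Ero1lb, an oxidase that helps proinsulin fold, went from 77 ± 18.1 to 38.5 ± 14.8 CPM (adjusted p = 6.1e-05), and the prolactin receptor gene Prlr from 37.1 ± 2.72 to 19.2 ± 13 CPM (-0.95, adjusted p = 0.0044). With the covariates their log2 fold changes were -0.37 (adjusted p = 0.058) and 0.08 (adjusted p = 0.42). The 2 genes that were higher, named after their values were seen, were Glp1r (0.48), the receptor for GLP-1, and Vgf (0.76), a granule peptide precursor. Verapamil-treated cells thus had more Mafa and less Ins2 mRNA in the same libraries.

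**Figure D5:**
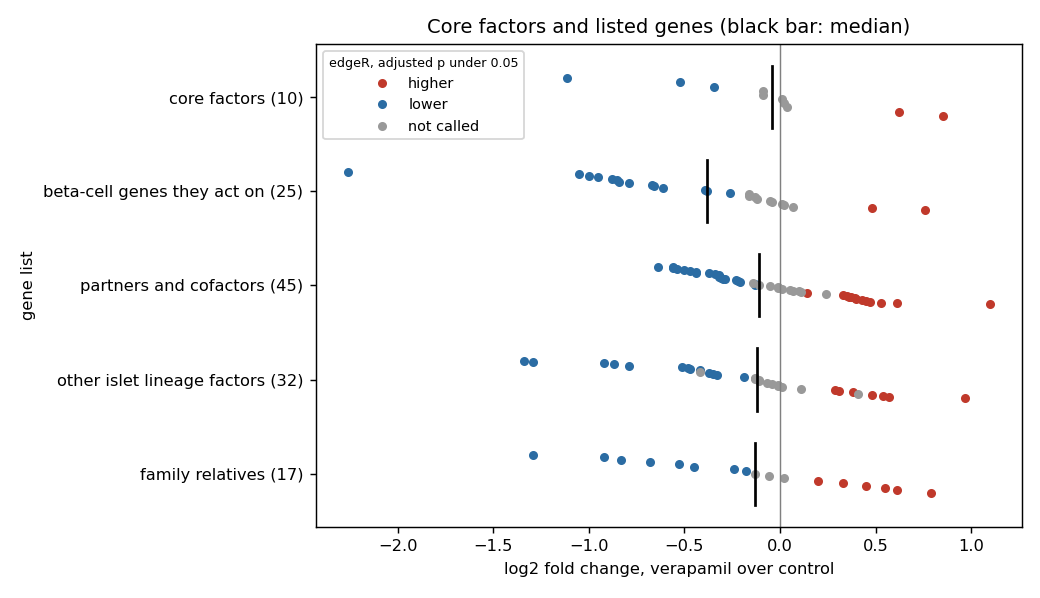
Log2 fold change, verapamil over control (x axis), of the 10 core factors and of the measured genes of 4 lists (y axis), 1 point per gene, with red for higher, blue for lower and grey for not called by edgeR and a black bar at each median. The genes that the factors act on have a median of -0.38, and the other 3 lists have medians between -0.13 and -0.11.

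Partners and cofactors of these factors were spread to both sides. Of 45 measured, 13 were higher, 21 lower and 11 not called (median -0.11), against 31.2% of all genes higher and 31.6% lower. The balance turned in the other fits, with 15 higher and 13 lower under the GC and length correction (28.2% and 28.9% of all genes) and 13 higher and 7 lower with the covariates (21.1% and 14.2%). Id4, an inhibitor of basic helix-loop-helix factors such as Neurod1 and its partners, went from 19 ± 1.43 to 40.7 ± 4.91 CPM (log2 fold change 1.10, adjusted p = 2.3e-13). All 12 of its treated libraries lay above every control. Lmo4, a LIM-only protein that binds Ldb1 as Isl1 does, was also higher (0.61, adjusted p = 8.5e-06). The chromatin remodeller Smarca2 (-0.56, adjusted p = 0.00013) and the kinase Hipk2 (-0.64, adjusted p = 0.019) were lower, but not with the covariates (adjusted p = 0.13 and 0.76). A single treated library held Hipk2 at 9.01 CPM.

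Among other factors of the islet lineage, 7 of 32 measured were higher, 13 lower and 12 not called (median -0.12), under the correction 10 were higher and 13 lower, and with the covariates 12 were higher and 6 lower, to be read against the same shares of all genes. Neurog3 and Pax4, which specify endocrine progenitors and β- and delta cells, were not among the genes analysed. Glis3, which activates the insulin gene, was lower (-0.92, adjusted p = 1.1e-07), and Bhlha15, a factor of secretory cells, was higher at low levels of 1.45 ± 0.345 and 2.85 ± 0.752 CPM (0.97, adjusted p = 7.1e-06). Sox9, a progenitor and ductal factor, was at 2.56 ± 0.757 and 1.39 ± 0.47 CPM (-0.87, adjusted p = 0.00039). The family relatives of the members, such as other Maf, Pax and Rfx genes, had 17 measured of 45 listed, and no listed Nkx relative was measured. Of the 17, 6 were higher, 8 lower and 3 not called (median -0.13), against 31.2% of all genes higher and 31.6% lower. Under the correction 5 were higher and 7 lower (28.2% and 28.9% of all genes). With the covariates 4 were higher and 3 lower (21.1% and 14.2%). Rfx3, a relative of Rfx6 that also acts in islets, had a control mean of 132 ± 5.8 CPM and treated libraries between 23.5 and 136 CPM (-0.83, adjusted p = 0.0027). It was at -0.09 under the correction and 0.02 with the covariates, neither called, whereas Rfx6 was lower in all 3. Pax5 (-0.68, adjusted p = 0.0026) and Maff (0.79, adjusted p = 0.002) were at the low levels of 4.52 ± 1.07 and 0.782 ± 0.328 CPM in control.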

How the data were processed

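RNA of verapamil-treated (50 µM; 24 h) and untreated MIN6 cells was sequenced, 12 libraries per group. The authors deposited unnormalized read counts for 12310 genes, which per the labels' processing notes came from bcl2fastq 2.20, Trimmomatic 0.39, HISAT2 2.1.0 and HTSeq 0.9.1 on GRCm38 (mm10). Nearly all of them (12306) passed the filter on low counts used here. Shares of all genes are thus shares of this table, and for a gene absent from it no count is given. The strand setting and annotation release of the counting are not stated in those notes, and the labels and the paper differ on the library kit and RNA input. The same table holds the authors' own edgeR comparison, with average levels, fold changes and p-values, which was not used. For 4 columns (C11, C12, V11, V12) the name matches several samples of the same group, so each counts as an unnumbered replicate, in experiment set 4 by elimination.

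Counts were analysed in R 4.3.3 with edgeR 4.0.16: filterByExpr (minimum count 10, minimum total 15) kept 12306 genes, followed by TMM scaling and the quasi-likelihood test, with Benjamini-Hochberg adjustment and a threshold of 0.05. SEs are the log2 fold change over the square root of F. Levels are TMM-normalized CPM; log2 CPM had a prior count of 2. The GC and length correction fitted natural splines (5 degrees of freedom) per library to its deviation from the control mean. They were entered as offsets, with TMM factors taken again from the corrected counts. Symbols were matched to GENCODE M21 for 12308 genes, and GC content and length are those of the longest transcript. Alternatives were DESeq2 1.42.0, other scalings and filters, set and number blocks, sums per set and left-out libraries. No 2 libraries of a group agreed within sampling noise (lowest chi-square per degree of freedom 5.73). Tables and plots used Python 3.11.15, pandas 2.3.3 and matplotlib 3.10.9.

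The members and lists were chosen with earlier results of these data known. Named were all members, of each list up to 4 called genes of at least 1 CPM with the largest changes, Ins1, Ins2, Neurog3, Pax4 and further islet factors whatever their result, and the 3 genes of highest r with each member. Some of these genes are not reported here.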

Additional observations from a re-analysis of the deposited data

Results flagged for a closer look

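After the GC and length correction, the effect of verapamil on Pax6 differed between experiment sets (edgeR interaction of set and treatment, adjusted p = 0.0259), where 7.73% of all genes were called. Without the correction the adjusted p was 0.0682, and no other member passed the test in either fit.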

How the results depend on the processing

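Over 24 alternatives, Mafa, Nkx2-2 and Rfx6 were called in their direction in 23, the exception being set 4 alone, where they were at 0.65 (adjusted p = 0.0704), 0.52 (0.218) and -0.88 (0.249). Set 4 alone also lost Neurod1 at -0.23 (0.421) and Pax6 at -0.11 (0.531) and left 0 members called higher and 0 lower by edgeR (3 at an unadjusted p under 0.05), with 39 genes higher and 11 lower. Neurod1 was further lost with the slopes as covariates (-0.034), and Pax6 there (-0.052) and with counts summed per set (-0.33). Under the GC and length correction 7 members were lower, and the changes were -0.34 for Pdx1, -0.19 for Nkx6-1, 0.17 for Isl1, -0.19 for Insm1 and -0.35 for Mnx1. With the scaling factors of the uncorrected counts, a choice made after seeing the data, 7 were lower, at -0.40 for Pdx1, -0.25 for Nkx6-1, 0.11 for Isl1, -0.26 for Insm1 and -0.41 for Mnx1. The slopes as covariates gave -0.15 for Pdx1, 0.28 for Isl1, -0.16 for Insm1, -0.22 for Mnx1, 0.078 for Prlr and 0.024 for Rfx3, with 1742 genes lower. Library totals alone called 5 members lower, with Pdx1 and Mnx1 at -0.12. Sets 1 and 4 gave 0.18 for Isl1 and -0.18 for Mnx1, and set 1 alone 0.18 and -0.24. All genes called higher numbered 1653 in sets 1 and 4, 1680 in set 1 and 2445 in set 3, and those called lower 1482 and 1721 in the first 2 of these and 2124 with sums per set. Leaving out a set in turn gave 2518 to 3939 genes lower. Of the 30 genes most like a member, 8 were the same over deviations from the group means. The cause of these changes was not tested.

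The replicate numbers shared by 10 pairs of libraries did not pair them: correlations of deviations ran from -0.0509 to 0.114, 2 of 10 were above 0.1, and no control library matched its own number best. A block by number called 3652 genes higher and 3915 lower and the same 5 members. With the GC and length correction that block called 7 members lower, with -0.35 for Pdx1, -0.22 for Nkx6-1, 0.18 for Isl1, -0.19 for Insm1 and -0.36 for Mnx1. The lowest count of a member was 253, and the biological coefficient of variation was 0.275 in verapamil and 0.102 in control libraries.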
